A study of Mus musculus with 6 samples.

Results

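Collagen chain genes are the genes whose symbol is Col, a type number, the letter a and a chain number. All 44 of them in the mouse gene table had a probe set on the array that is annotated to a single gene, among 19938 genes with such a probe set. Where a gene had several probe sets, the brightest on average was used, and 42 of the 44 had only 1. The chains were grouped by the assembly they form: 11 fibrillar chains, 9 FACIT chains (collagens that sit on the surface of fibrils), 6 network chains of basement membrane, 3 short-chain collagens, 6 beaded filament chains, 4 transmembrane chains, 2 multiplexins and 3 others.

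The RNA came from growth plate chondrocytes of the femurs and tibiae of mice at postnatal day 30. There were 3 samples from conditional Lkb1 mutant mice and 3 from control mice, all on a mixed FVB, 129S6 and C57CL/6 background as the labels spell it, and each was hybridised to its own Affymetrix array. Lkb1 is an older name of Stk11, a kinase gene; the promoter that drives its deletion and the alleles that the controls carry are named in none of the sources at hand. The labels call the replicates biological without tying each to its own mouse, so a p-value measures the spread between these samples, which may be technical. Levels are given as log2(intensity + 1), and each difference is mutant minus control on that scale.

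A collagen molecule is a rope of 3 chains, each a long repeat rich in glycine and proline. Cartilage fibrils are built mainly from type II collagen with type XI inside the fibril and type IX on its surface. Bone, tendon and skin fibrils are built mainly from type I with type V and, chiefly in soft tissues, type III. In the growth plate, chondrocytes that stop dividing and enlarge switch on type X collagen, a short-chain collagen that marks the hypertrophic zone. Type IV forms the sheet of basement membranes, which cartilage without vessels largely lacks, and type VI surrounds chondrocytes as a pericellular filament.

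The promoters of 4 chains with called changes are shown because they belong to the short-chain collagens that moved in opposite directions (Col8a1, Col10a1) and to a pair of interstitial fibrillar chains (Col3a1, Col1a2). Each run is the 250 bases before the annotated start, 5′ to 3′ on the gene's strand, from the RefSeq promoter table of build GRCm38.p6. Capitals mark 4 motifs found on either strand. One is TATAAA, known as the core of many promoters. Another is the CCAAT box. The GC box was searched as GGGCGG. The letters searched for AP-1 factors were TGANTCA. The regions are chr16:57754738-57754987 (minus strand) for Col8a1, chr10:34389731-34389980 (plus strand) for Col10a1, chr1:45311288-45311537 (plus strand) for Col3a1 and chr6:4505368-4505617 (plus strand) for Col1a2.
Col8a1: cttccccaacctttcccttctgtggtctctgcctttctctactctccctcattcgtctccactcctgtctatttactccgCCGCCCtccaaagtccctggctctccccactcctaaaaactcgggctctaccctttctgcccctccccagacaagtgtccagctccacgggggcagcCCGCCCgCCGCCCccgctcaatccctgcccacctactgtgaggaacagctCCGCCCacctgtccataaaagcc
Col10a1: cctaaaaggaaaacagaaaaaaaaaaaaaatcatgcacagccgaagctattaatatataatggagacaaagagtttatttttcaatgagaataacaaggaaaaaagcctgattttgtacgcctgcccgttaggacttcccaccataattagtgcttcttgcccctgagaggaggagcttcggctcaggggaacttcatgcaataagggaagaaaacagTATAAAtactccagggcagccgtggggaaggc
Col3a1: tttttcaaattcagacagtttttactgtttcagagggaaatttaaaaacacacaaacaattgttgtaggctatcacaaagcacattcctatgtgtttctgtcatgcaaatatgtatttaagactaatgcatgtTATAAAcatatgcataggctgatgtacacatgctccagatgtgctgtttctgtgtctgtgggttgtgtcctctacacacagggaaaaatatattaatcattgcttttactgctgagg
Col1a2: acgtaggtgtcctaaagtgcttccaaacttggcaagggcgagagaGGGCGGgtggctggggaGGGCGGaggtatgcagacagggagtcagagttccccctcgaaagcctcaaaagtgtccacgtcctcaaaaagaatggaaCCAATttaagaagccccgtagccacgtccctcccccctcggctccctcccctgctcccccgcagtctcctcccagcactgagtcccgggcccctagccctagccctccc
The Col10a1 run holds TATAAA with its first base 32 bases before the start, and the Col3a1 run holds it 117 bases before the start. The Col8a1 run holds 4 GC boxes, the Col1a2 run holds 2 GC boxes and 1 CCAAT box, and none of the 4 runs holds the AP-1 letters. Over the 38 windows that the table gives for 35 of the collagen genes, 13.2% hold TATAAA, 34.2% hold the CCAAT box, 57.9% hold the GC box and 2.63% hold TGANTCA. Over all 32851 promoter windows of this length the shares are 12.4%, 33.8%, 32.7% and 6.75% in the same order. A match describes the letters and is no evidence of a bound factor.

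Most collagen genes that changed rose in the mutants. Those that rose were Col1a1, Col1a2, Col3a1, Col5a1 and Col5a2 of the interstitial fibrils, Col12a1 and Col16a1 of the FACIT class, Col4a1, Col4a2 and Col18a1 of basement membranes, and Col8a1 and Col8a2. In a limma fit of 17020 genes, with p-values adjusted by Benjamini and Hochberg's method and a threshold of 0.05, 12 of the 44 were called higher (27.3%) and 1 lower (2.27%). Among all genes tested 7.84% were called higher and 6.82% lower. Of the 12, 5 rose by at least 1 on the log2 scale (11.4% of the collagens, against 1.58% of all genes). In 15 collagen genes (34.1%) every mutant array lay above every control array, and in 3 (6.82%) every mutant array lay below. Over all genes these shares were 20.0% and 16.7%, or 36.7% in either direction. The median difference of the 44 was 0.10, beside 0.03 over all genes tested.

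**Figure D1:**
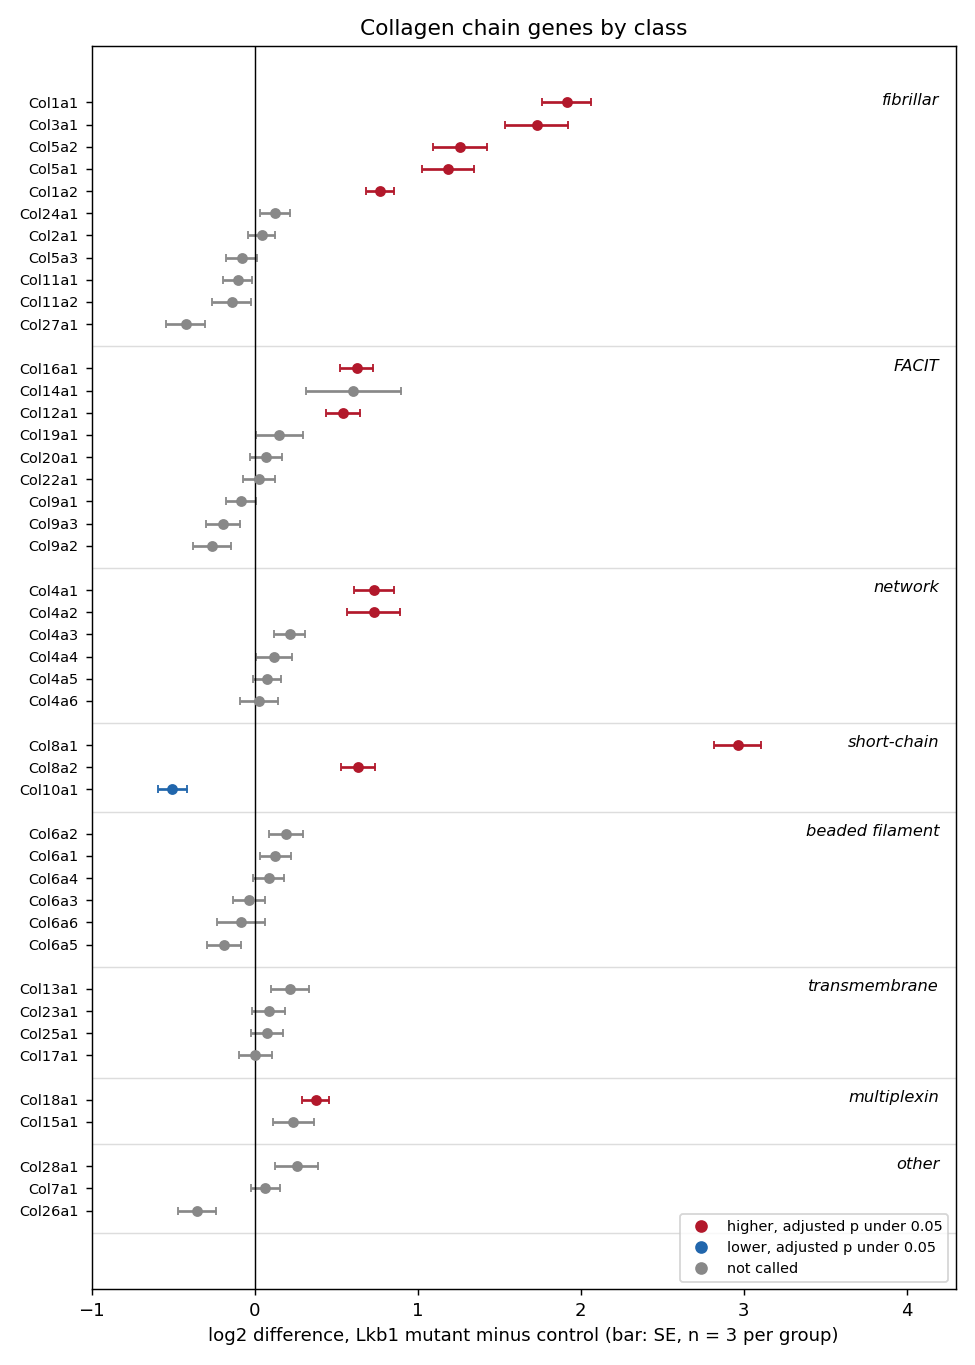
Log2 difference (Lkb1 mutant minus control, x axis) of each of the 44 collagen chain genes, grouped by class (y axis); points are differences, bars are the standard error (3 arrays per group). Red points are called higher, blue lower and grey neither; Col8a1 lies farthest right at 2.96, Col10a1 at -0.50 is the called decrease, and the beaded filament chains lie between -0.19 and 0.19.

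The arrays themselves bear on every value below. Stk11, the targeted gene, was at 7.39, 7.51 and 7.52 in the mutants and at 8.68, 9.08 and 9.67 in the controls. The difference was -1.67 (SE 0.22, limma adjusted p = 0.00387), and -1.21 with control replicate 1 as the only control. Whether the Stk11 probes lie in the deleted part was not analysed here. Of 12 chondrocyte markers, all 12 exceeded the background in every array, where background is the 95% point of 1023 olfactory receptor probe sets (6.40 to 6.73 per array). Their mean was 11.18, 11.21 and 11.18 in the mutants and 11.29, 11.14 and 11.03 in the controls. Of the 12, Matn1, a cartilage matrix protein gene, was called higher (1.28, adjusted p = 0.0248) and Sox6, a chondrocyte transcription factor gene, lower (-0.38, adjusted p = 0.0282). For 25 blood lineage markers (erythroid, neutrophil and B lymphoid) the mean was 6.11, 6.08 and 5.83 in the mutants and 8.54, 9.31 and 10.04 in control replicates 1, 2 and 3. Of these 25, 22 were called lower, 4 exceeded the background in all mutants and 23 in all controls. Of 10 markers of fibrous tissue and tendon, 5 were called higher and none lower; their mean was 10.16, 10.20 and 10.22 in the mutants and 9.21, 9.07 and 8.64 in the controls. In bulk tissue of this kind, fewer cells of a type and less RNA per cell cannot be told apart, and the part of these other cells in the collagen differences was not tested.

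**Figure D2:**
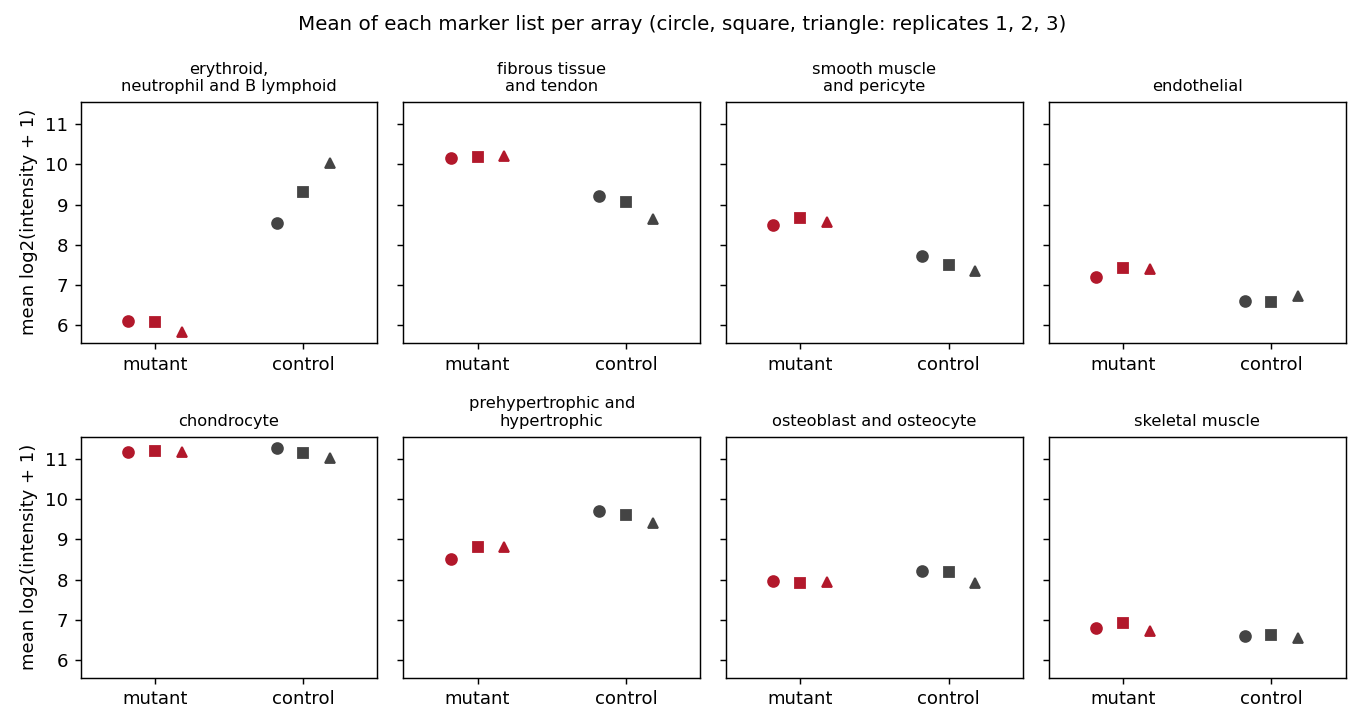
Mean log2(intensity + 1) of 8 marker lists (y axis) in each of the 3 mutant and 3 control arrays (x axis); each symbol is an array. The blood lineage mean is near 6 in all mutants and between 8.54 and 10.04 in the controls, the fibrous tissue mean is above 10 in all mutants and at most 9.21 in the controls, and the chondrocyte mean stays between 11.03 and 11.29.

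Control replicate 3, the array with the most blood lineage signal, also had the lowest level among the controls for 30 of the 44 collagen genes and for 11 of the 12 that were called higher. How often that array was lowest over all genes was not counted, so these counts show nothing particular to collagen genes. A link between blood signal and collagen level was not tested. With control replicate 1, which had the least such signal, as the only control, the 12 differences were between 0.38 and 3.02. They could only be positive, because in each of these genes every mutant array lay above every control array. The comparison with replicate 1 alone has no test, because it leaves a single control.

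Of the 11 fibrillar chains, 5 rose and none fell, and those 5 are chains of types I, III and V, the collagens of interstitial fibrils. Col1a1 (probe set 10380419), the main chain of type I collagen, was at 11.82, 11.83 and 11.96 in the mutants and at 10.16, 10.09 and 9.62 in the controls. The groups lie well apart, with a difference of 1.91 (SE 0.15, adjusted p = 0.000520), or 3.77-fold. Col1a2 (probe set 10536220), its partner chain, was at 12.08, 12.13 and 12.18 in the mutants and at 11.42, 11.40 and 11.26 in the controls. It rose by 0.77 (SE 0.09, adjusted p = 0.00205), 1.70-fold, from a probe set that only 227 others on the array exceeded in mean intensity.

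Col3a1 (probe set 10346015), which makes the thin fibrils of loose and healing connective tissue, was at 10.87, 10.83 and 10.96 in the mutants and at 9.35, 9.45 and 8.68 in the controls. The controls spread widely because replicate 3 lay below the other two, and the difference was 1.73 (SE 0.19, adjusted p = 0.00184). Type V collagen sits inside type I fibrils and limits their width. Its chains Col5a1 (9.69, 9.45 and 9.87 in the mutants, 8.57, 8.68 and 8.19 in the controls) and Col5a2 (9.91, 10.003 and 10.19 in the mutants, 8.80, 9.08 and 8.44 in the controls) both rose. The differences were 1.19 (SE 0.16, adjusted p = 0.00397) for Col5a1 and 1.26 (SE 0.17, adjusted p = 0.00356) for Col5a2. Col5a3, the less common chain of that type, was at 6.95, 6.93 and 6.85 in the mutants and at 7.07, 7.04 and 6.85 in the controls, near the background, with a difference of -0.08 (adjusted p = 0.635). Markers of fibrous tissue were higher in the same arrays, as given above. So were 4 of 7 markers of smooth muscle and pericytes, with 1 lower. The mean of those 7 was 8.49, 8.67 and 8.58 in the mutants and 7.74, 7.49 and 7.35 in the controls. Of 7 markers of osteoblasts and osteocytes measured, 6 were tested, of which none was called higher and 1 was lower. The mean of the 7 was 7.97, 7.92 and 7.94 in the mutants and 8.21, 8.19 and 7.92 in the controls.

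The fibrillar chains of cartilage did not pass the test in either direction. Col2a1 (probe set 10432045), the chief collagen of cartilage, was at 12.32, 12.45 and 12.42 in the mutants and at 12.37, 12.35 and 12.33 in the controls. The groups overlap, and the difference of 0.04 has a 95% interval of -0.15 to 0.24 (adjusted p = 0.776). Only 33 probe sets on the array were brighter, with the highest value of any array at 13.14, so a change compressed near the top of the scale was not tested. Col11a1 was at 11.13, 11.27 and 11.23 in the mutants and at 11.36, 11.36 and 11.22 in the controls. Col11a2 was at 9.62, 9.88 and 9.83 in the mutants and at 10.05, 9.95 and 9.74 in the controls. Both are chains of the type XI collagen at the fibril core, and they differed by -0.10 (95% interval -0.31 to 0.11) and -0.14 (95% interval -0.42 to 0.13).

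Col27a1, a fibrillar chain of cartilage, was lower in every mutant array, at 9.99, 10.06 and 10.04, against 10.70, 10.35 and 10.32 in the controls. Its difference of -0.42 (SE 0.12) was not called, with an adjusted p of 0.0535. When single arrays were left out, it ranged from -0.49 (adjusted p = 0.0396, control replicate 3 dropped) to -0.30 (adjusted p = 0.0587, control replicate 1 dropped), and the adjusted p reached 0.158 when mutant replicate 1 was dropped. Col24a1, the remaining fibrillar chain, was at 6.72, 6.76 and 6.85 in the mutants and at 6.56, 6.74 and 6.65 in the controls, close to the background in both. The 11 fibrillar chains thus had a median of 0.13, with differences from -0.42 to 1.91.

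**Figure D3:**
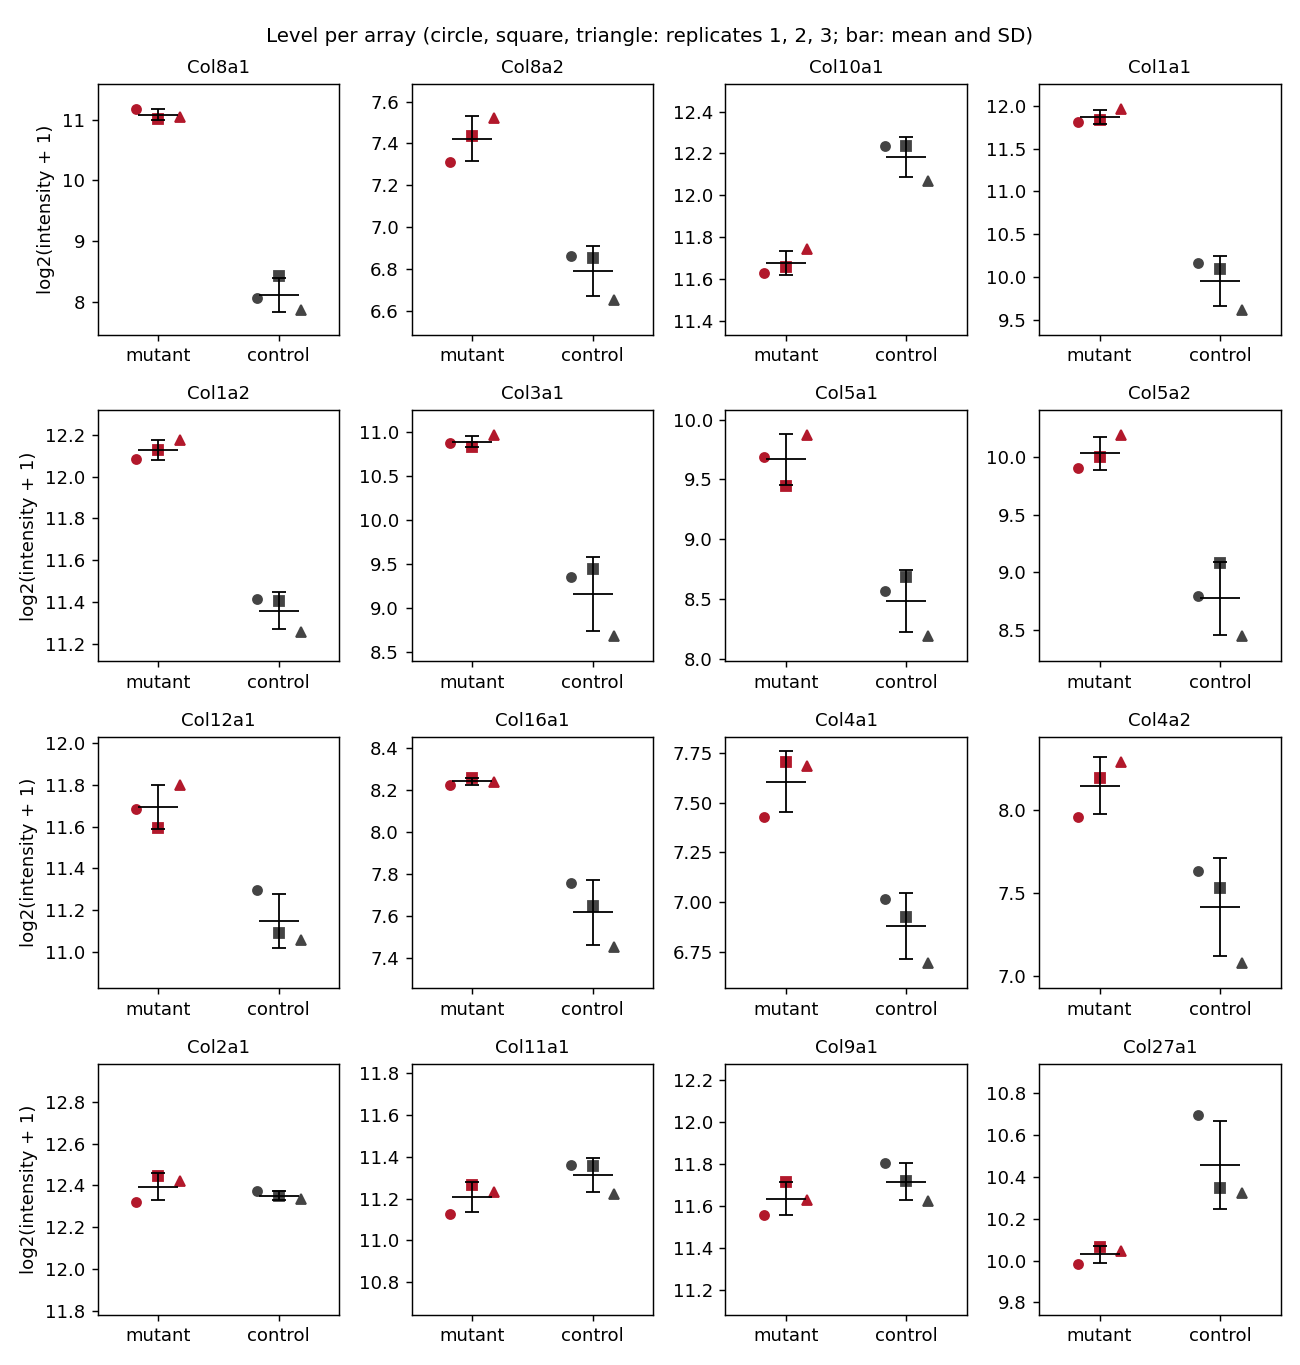
Level of 16 collagen genes in each array (y axis, log2(intensity + 1), with its own range in each panel) for the mutant and control groups (x axis); symbols are arrays, lines and bars the mean and SD of 3 arrays. The mutant and control arrays are separate for the first 12 genes and for Col27a1, and overlap for Col2a1, Col11a1 and Col9a1.

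Of 9 FACIT chains, 2 rose and none fell, and the median difference was 0.07. Col12a1 (probe set 10595211), which binds type I fibrils in tendon, ligament and perichondrium, was at 11.69, 11.59 and 11.80 in the mutants and at 11.30, 11.09 and 11.06 in the controls. It rose by 0.54 (SE 0.10, adjusted p = 0.0145). Leaving out 1 array ended that call in 3 cases, with an adjusted p of 0.0597 when control replicate 2 was dropped, 0.0574 for mutant replicate 1 and 0.0755 for mutant replicate 3. Col16a1 (probe set 10508533), a minor fibril-associated chain found in skin and cartilage, was at 8.23, 8.26 and 8.24 in the mutants and at 7.75, 7.64 and 7.45 in the controls, and rose by 0.63 (SE 0.10, adjusted p = 0.00787). Col14a1, a relative of Col12a1, was at 8.40, 8.80 and 8.38 in the mutants and at 8.45, 8.08 and 7.23 in the controls. Its difference was 0.61, but the controls ranged over more than 1 on the log2 scale (SD 0.62), the groups overlapped, and it was not called (SE 0.29, adjusted p = 0.216). The difference ranged from 0.26 to 0.87 when single arrays were left out, and was 0.075 with control replicate 1 as the only control.

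Type IX collagen decorates type II fibrils, and all 3 of its chains had negative differences that did not pass. Col9a1 was at 11.56, 11.72 and 11.63 in the mutants and at 11.80, 11.72 and 11.62 in the controls, a difference of -0.08 (95% interval -0.30 to 0.13). Col9a2 was at 10.07, 10.37 and 10.18 in the mutants and at 10.60, 10.47 and 10.33 in the controls, a difference of -0.26 (95% interval -0.53 to 0.01). Col9a3 was at 10.83, 10.99 and 10.93 in the mutants and at 11.26, 11.11 and 10.97 in the controls, a difference of -0.19 (95% interval -0.44 to 0.05). The groups overlap for all 3 chains. The other FACIT chains were dim: Col22a1, a chain of the muscle and tendon junction, exceeded the background in every array by little, Col20a1 in 2 mutants and 1 control, and Col19a1 in no array. Their differences were 0.03, 0.07 and 0.15.

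The short-chain collagens held both the highest rise and the called fall of the family. Col8a1 (probe set 10440091), a chain of the hexagonal networks found in vessel walls and the cornea, was at 11.18, 11.02 and 11.05 in the mutants and at 8.06, 8.42 and 7.87 in the controls. The difference was 2.96 (SE 0.15, adjusted p = 0.000193), or 7.80-fold, and it stayed between 2.67 and 3.11 under the alternatives with a test. Col8a2 (probe set 10508142), the partner chain, was at 7.31, 7.44 and 7.52 in the mutants and at 6.86, 6.85 and 6.65 in the controls. It rose by 0.63 (SE 0.10, adjusted p = 0.00789), and control replicate 3 did not exceed the background, so that background limits the size of this rise.

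Col10a1 (probe set 10362495), whose product is typical of hypertrophic cartilage, went the other way: it was at 11.63, 11.66 and 11.74 in the mutants and at 12.24, 12.24 and 12.07 in the controls. The groups do not overlap, and the level fell by 0.50 (SE 0.09, adjusted p = 0.0114), 1.42-fold. Only 158 probe sets on the array were brighter by mean. Whether compression near the top of the scale made this fall look smaller was not tested. When mutant replicate 1 was dropped the difference was -0.48 and the call ended (adjusted p = 0.0539), and likewise for mutant replicate 2 (-0.49, adjusted p = 0.0546). Of 6 other prehypertrophic and hypertrophic genes measured, 5 were called lower and none higher. Their mean was 8.51, 8.81 and 8.82 in the mutants and 9.70, 9.62 and 9.41 in the controls. Pth1r, the parathyroid hormone receptor of prehypertrophic cells, was among them, with a difference of -1.13. That list is not complete for hypertrophic cells. It leaves out Mmp13, given below with the genes of collagen breakdown, which was called higher (2.23, adjusted p = 0.00194).

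In the network class, the 2 chains of the basement membranes found in most tissues rose and the 4 chains of specialised membranes were not called. Col4a1 (probe set 10576973) was at 7.43, 7.71 and 7.69 in the mutants and at 7.02, 6.92 and 6.69 in the controls. Col4a2 (probe set 10570068) was at 7.96, 8.19 and 8.29 in the mutants and at 7.63, 7.53 and 7.08 in the controls. Both rose by 0.73, with an SE of 0.12 and an adjusted p of 0.00895 for Col4a1, and an SE of 0.16 and an adjusted p of 0.0246 for Col4a2. The Col4a1 call ended without mutant replicate 3 (adjusted p = 0.0503). The Col4a2 call ended when control replicate 2, mutant replicate 2 or mutant replicate 3 was dropped, with adjusted p of 0.0609, 0.0888 and 0.103.

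Col4a3, Col4a4, Col4a5 and Col4a6, chains known from kidney and other specialised basement membranes, had differences from 0.03 to 0.21. Of these, Col4a3 and Col4a5 were higher in every mutant array without a call. Col4a5 and Col4a6 exceeded the background in no array, Col4a3 in 2 mutants and 1 control, and Col4a4 in all arrays. The class had a median difference of 0.17. Endothelial cells, which lay down basement membrane, were represented by 10 markers, of which 8 were called higher and none lower. Their mean was 7.20, 7.42 and 7.40 in the mutants and 6.60, 6.59 and 6.72 in the controls; 7 exceeded the background in all mutants and 5 in all controls. Cdh5, the cadherin of endothelial junctions, was among the 8, with a difference of 1.30.

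Both multiplexins, collagens of the basement membrane zone of vessels and other tissues, had positive differences. Col18a1 (probe set 10370259), whose product is cleaved to endostatin, was at 6.86, 6.94 and 6.94 in the mutants and at 6.53, 6.52 and 6.57 in the controls. It rose by 0.37 (SE 0.08, adjusted p = 0.0221), the smallest called rise in the family, and only control replicate 1 exceeded the background among the controls. Its call ended without control replicate 2 and without any of the mutant replicates, with adjusted p between 0.0612 and 0.108. Col15a1 was at 9.35, 9.48 and 9.55 in the mutants and at 9.37, 9.32 and 8.98 in the controls, a difference of 0.24 that was not called (adjusted p = 0.259).

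Of the 6 beaded filament chains, none was called, although all 6 exceeded the background in every array. Col6a1 was at 11.45, 11.45 and 11.56 in the mutants and at 11.45, 11.39 and 11.24 in the controls. Col6a2 was at 11.41, 11.41 and 11.49 in the mutants and at 11.38, 11.29 and 11.07 in the controls, higher in every mutant array. Col6a3 was at 11.03, 10.95 and 11.15 in the mutants and at 11.19, 11.06 and 10.99 in the controls. These encode the classical type VI molecule, and their differences were 0.13, 0.19 and -0.04, with adjusted p of 0.428, 0.272 and 0.847. The later chains Col6a4, Col6a5 and Col6a6 differed by 0.09, -0.19 and -0.08. For Col6a5 and Col6a6 a further, dimmer probe set had the opposite sign (0.62 and 0.30), so no direction is given for them.

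No transmembrane chain was called. The differences of Col13a1, Col17a1, Col23a1 and Col25a1 lay between 0.0036 and 0.22, and the brightest by mean, Col13a1, a chain of the neuromuscular junction, was at 7.13, 6.93 and 7.01 in the mutants and at 6.81, 6.62 and 6.99 in the controls. Of the remaining chains, Col26a1 was lower in every mutant, at 7.33, 7.55 and 7.26, against 7.87, 7.76 and 7.58 in the controls. Its difference of -0.35 (SE 0.12) was not called (adjusted p = 0.0888), but was without control replicate 3 (adjusted p = 0.0476). Col7a1, the anchoring fibril chain of skin, differed by 0.07 and Col28a1 by 0.26, and neither was called. In all, 34 of the 44 genes exceeded the background in every array and 3 (Col19a1, Col4a5 and Col4a6) in none.

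In 13 pairs of partner chains, the within-array difference between the chains was compared between groups. It did not overlap between mutants and controls in 7 pairs. Each of these has an exact two-sided permutation p of 0.1, the smallest that 3 against 3 arrays allow. After Benjamini-Hochberg adjustment over the 13 pairs that p is 0.186. The pairs within type VI and within type IX share chains, so the 13 are not independent. How often other pairs of genes do not overlap was not counted, so the count of 7 shows nothing particular to partner chains. For Col1a1 over Col1a2 the measured excess was 1.14 (SE 0.12, n = 3 each). For Col8a1 over Col8a2 it was 2.33 (SE 0.16, n = 3 each), but Col8a2 did not exceed the background in control replicate 3, so its own rise may be understated and this excess overstated. Col4a5 and Col4a6 exceeded the background in no array, so that pair carries no information on a difference. In contrast, Col4a1 and Col4a2 differed in their change by 0.00015 (SE 0.083), and Col5a1 and Col5a2 by -0.07 (SE 0.11). The remaining pairs that did not overlap, in types VI and IX, differed by 0.23 or less in size. Probe sets of different chains can respond differently to the same change in RNA, and a bright probe set such as that of Col1a2 may respond less, which was not tested.

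**Figure D4:**
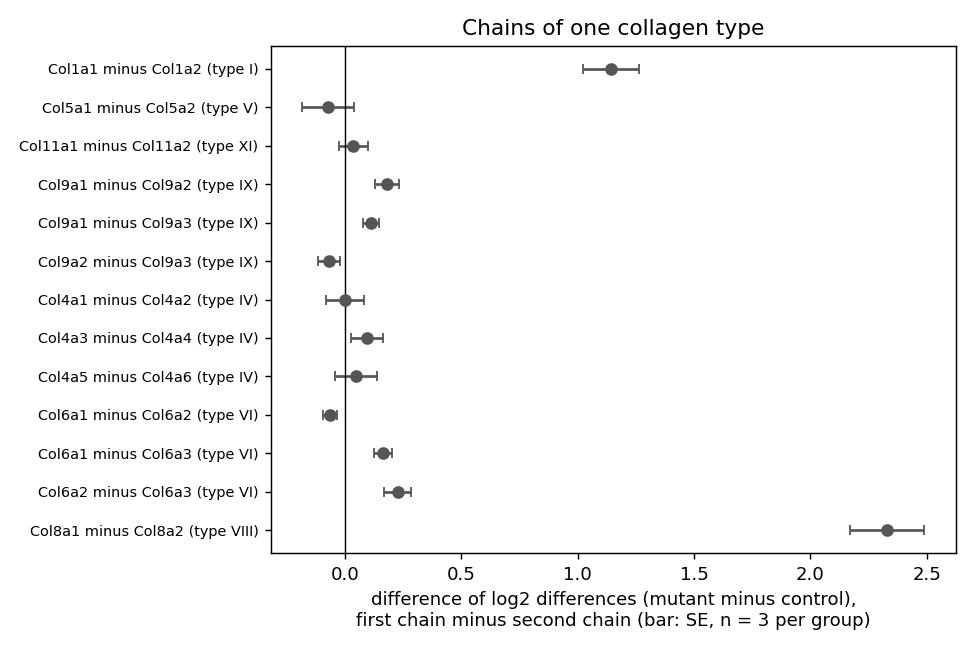
Difference between the changes of partner chains (x axis, log2 difference of the first chain minus that of the second; bars are the SE over 3 arrays per group) for 13 pairs of the same collagen type (y axis). Col8a1 over Col8a2 (2.33) and Col1a1 over Col1a2 (1.14) lie to the right of the other 11 pairs, which lie between -0.07 and 0.23; Col8a2 does not exceed the background in control replicate 3, and Col4a5 and Col4a6 are below it in every array.

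Several collagen genes are direct neighbours in the RefSeq annotation of GRCm38.p6, counting protein-coding genes. Col3a1 and Col5a2 lie side by side on chromosome 1, and both rose, by 1.73 and 1.26. Col4a1 and Col4a2 start beside each other on chromosome 8, with 300-base promoter windows that share 78 bases and gene bodies that overlap by 85 bases, and both rose by 0.73. Where their probe sets lie relative to that overlap was not analysed here. The other neighbouring pairs (Col9a1 with Col19a1, Col4a3 with Col4a4, Col6a1 with Col6a2, Col6a5 with Col6a6 and with Col6a4, Col4a5 with Col4a6) held no called gene.

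Genes that make, bind or break down collagen were described from 5 lists. Of 48 such genes tested, 12 were higher and 2 lower (29.2%), against 14.7% of all genes called in either direction; the median difference was 0.06. Of 16 genes of hydroxylation and folding, only P3h3, a prolyl 3-hydroxylase family member, was called (0.51, SE 0.13, adjusted p = 0.0337), and its call ended in 4 of the 6 fits without an array and after array median centring, with adjusted p of up to 0.134. With control replicate 1 as the only control, the P3h3 difference was 0.30. Of 12 genes of secretion and propeptide removal, Pcolce, which speeds the removal of the C-propeptide of fibrillar collagens, rose by 0.82 (SE 0.13, adjusted p = 0.00613). Adamts3, a protease of the N-propeptide, rose by 0.71, and Mia2, a cargo receptor at endoplasmic reticulum exits, fell by 0.56 at a level below the background in all 6 arrays. Dropping mutant replicate 3 ended both calls (0.0669 for Adamts3, 0.0538 for Mia2, adjusted p), and dropping mutant replicate 2 ended that of Adamts3 (0.0674).

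The lysyl oxidases, which cross-link collagen and elastin, went both ways: of 4 tested, 2 were called higher and 1 lower. Loxl3 was not called (-0.11, adjusted p = 0.603). Loxl1 was at 9.57, 9.39 and 9.50 in the mutants and at 8.22, 7.99 and 7.46 in the controls, and rose by 1.60 (SE 0.19, adjusted p = 0.00211). Lox rose by 1.33, a call that ended when mutant replicate 3 was dropped (adjusted p = 0.0513). Loxl4 was at 10.03, 9.80 and 10.08 in the mutants and at 11.60, 11.40 and 11.26 in the controls, and fell by 1.45 (SE 0.12, adjusted p = 0.000660). Of 9 collagen receptors, Itga11, the integrin chain by which fibroblasts bind type I collagen, was at 9.25, 8.72 and 9.27 in the mutants and at 7.06, 6.86 and 6.76 in the controls. It rose by 2.19 (SE 0.16, adjusted p = 0.000485). Mrc2, an uptake receptor for collagen fragments, rose by 0.93. Itgb1, the shared beta chain of the collagen-binding integrins, rose by 0.39, and its call ended when any mutant array or control replicate 2 was dropped (adjusted p from 0.0563 to 0.101). Of 7 genes of collagen breakdown, 4 were called higher and none lower. Mmp9, a gelatinase gene, was lower in every mutant array without a call (-1.04, adjusted p = 0.0594), and so was Pepd, a gene of proline release from collagen peptides (-0.21, adjusted p = 0.204). The called genes included the collagenase gene Mmp13 (2.23, SE 0.25), the membrane-bound collagenase gene Mmp14 (1.52, SE 0.16) and Ctsk (1.30, SE 0.15), which encodes cathepsin K, a collagen-cleaving protease of osteoclasts. Over all 5 lists, 8 genes were called without mutant replicate 3.

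**Figure D5:**
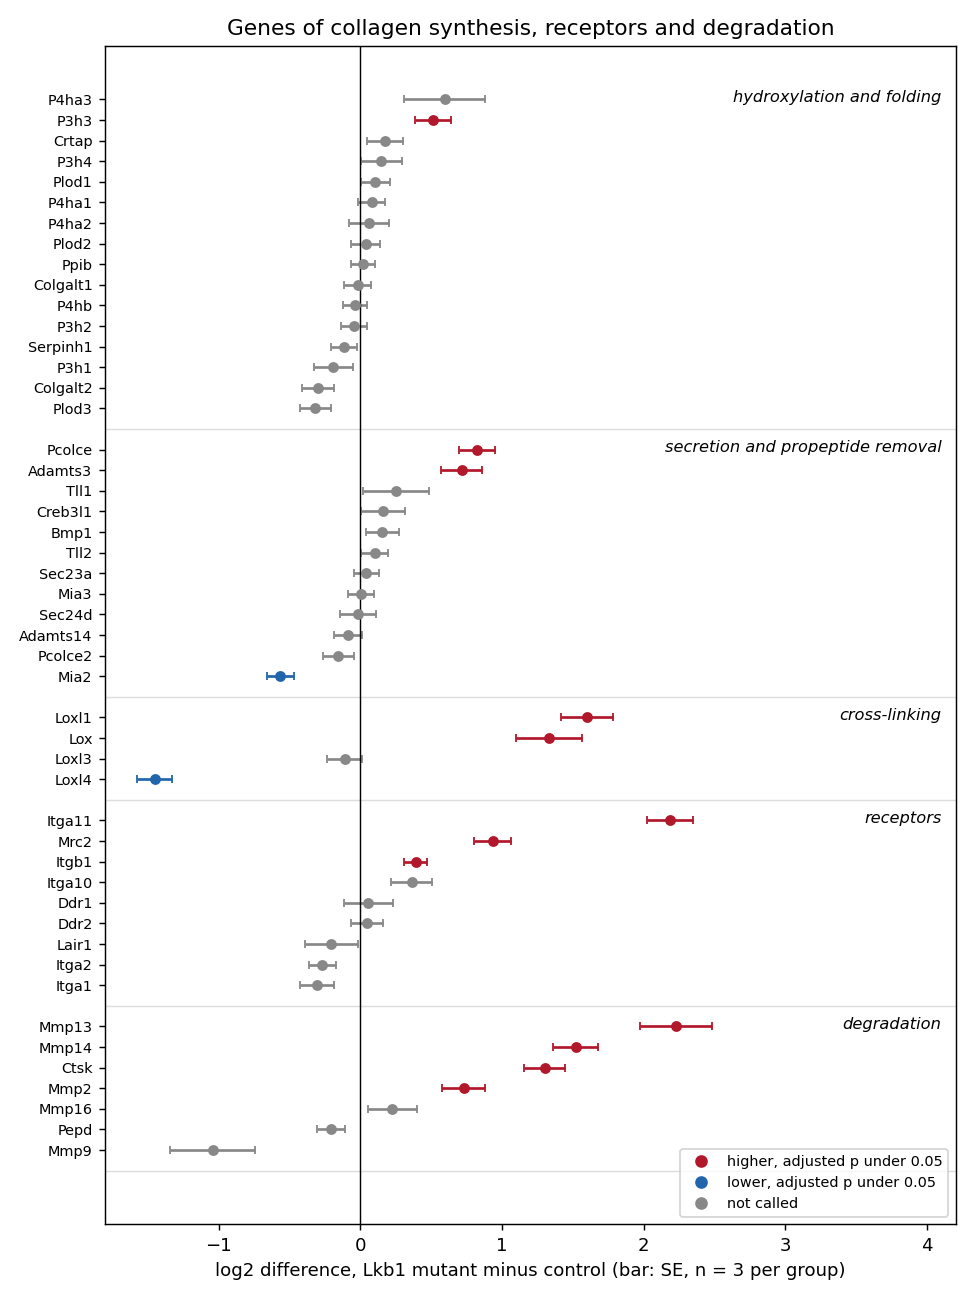
Log2 difference (Lkb1 mutant minus control, x axis) of 48 genes of collagen synthesis, cross-linking, receptors and degradation (y axis, by list); bars are the SE over 3 arrays per group, red is called higher, blue lower and grey neither. The hydroxylation and folding genes lie between -0.32 and 0.60, Itga11 and Mmp13 lie above 2, Loxl4 lies at -1.45, and Mmp9 lies at -1.04 without a call.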

How the data were processed

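Total RNA of 3 Lkb1 mutant and 3 control growth plate chondrocyte samples was measured on single-channel Affymetrix arrays. Per the labels' protocols, biotinylated cDNA was made with the Ambion WT expression kit. The intensities that the authors deposited, 35512 probe sets per array on a linear scale from 0.74 to 9001 with medians of 82.4 to 90.5, were used; their summary and normalisation are not given in the sources used here. Depth does not apply to arrays, and 3 arrays per group limit the precision. Arrays correlated at 0.979 to 0.984 among the mutants, 0.960 to 0.972 among the controls and 0.940 to 0.965 between groups.

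Probe sets were named through the platform annotation, with symbols updated by gene number to RefSeq GRCm38.p6 (21789 annotated to 1 gene, 1621 to several, 12102 not listed; 21698 matched by number). Values were transformed to log2(intensity + 1). The dimmest 25% of probe sets, by mean and below 5.56, were left out, and per gene the one with the highest mean was kept, which left 17020 genes; all 44 collagen genes passed. The comparison used lmFit and eBayes of limma 3.58.1 (R 4.3.3); its two-sided p-values were adjusted across all genes by the Benjamini-Hochberg method. SE and 95% intervals of single genes come from that fit. The SE of a pair of chains comes instead from the spread of the within-array differences in each group, without limma. The fit was tested on simulated data. Pairs of chains were compared with an exact permutation test.

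The collagen genes, their classes, the gene lists and the alternatives were chosen with earlier results of these data known. Stk11 was named first. Values in every array are given for called collagens, for the chains of cartilage and for the chain with the highest mean in each class, and other collagen chains are named so that the family is described whole, some after their values were seen. Up to 3 called genes per list of the collagen pathway are named. All named genes outside the collagens were tested in the same fit. The labels number the replicates without saying that the numbers pair the samples, and the main fit did not pair them. The deviations of mutant and control arrays of the same number correlated at 0.08, 0.21 and -0.08 over all genes tested. Arrays of unlike number correlated at -0.18 to 0.11. So few values cannot settle whether the samples are paired. The alternatives were quantile normalisation, array median centring, a pseudocount of 16, a filter at the median or none, averaged probe sets, array weights, an intensity-dependent prior, a replicate block, leaving out each array, and control replicate 1 as the only control. Array weights did not converge.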

Additional observations from a re-analysis of the deposited data

How the results depend on the processing

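Of 656 values of the 44 collagen genes under alternatives with a test, 608 kept direction and call, 15 lost a call, 15 gained one and 18 changed direction, none of the last in a called gene. In the 13 called genes the groups do not overlap, so leaving out an array could not change their direction. Of the 12 rises, 8 kept their call under every such alternative (Col1a1, Col1a2, Col3a1, Col5a1, Col5a2, Col8a1, Col8a2 and Col16a1). Without single arrays, 8 to 12 collagens were called higher, 0 to 3 lower, 8 to 17 pathway genes and 936 to 3282 genes in all. The decreases numbered 2 with a filter at the median, with a pseudocount of 16 and with an intensity trend, each time with Col27a1. Array weights, whose estimation did not converge, called 8006 genes, 16 collagens higher, 7 collagens lower and 30 pathway genes. That fit is among the 656 values and gave most of the 15 gained calls. With the replicate block, 11 of the 13 collagen calls remained, and those of Col4a2 (adjusted p = 0.053) and Col18a1 (adjusted p = 0.0583) ended. So did those of P3h3 (adjusted p = 0.0647) and Itgb1 (adjusted p = 0.0557). Whether the replicate numbers pair the samples is not known. The FACIT median of 0.07 was -0.0067 with array weights, 0.014 to 0.13 without single arrays and 0.0017 with control replicate 1 as the only control, where the fibrillar median was 0.21. Without single arrays the fibrillar median was 0.083 to 0.17, the network median 0.12 to 0.21 and the short-chain median 0.56 to 0.69.

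Signs changed in uncalled genes, whose reported differences included -0.19 for Col6a5 and 0.15 for Col19a1. With the mean of probe sets Col6a5 was at 0.22 and Col6a6 at 0.11, and with array median centring Col17a1 was at -0.0054. With array weights Col19a1 was at -0.013, Col22a1 at -0.12, Col4a6 at -0.16, Col6a3 at 0.012 and Col17a1 at -0.084. With control replicate 1 as the only control, Col20a1 was at -0.050, Col6a4 at -0.010 and Col25a1 at -0.082. Without single arrays the differences ran from -0.027 to 0.093 for Col22a1, -0.037 to 0.107 for Col4a6, -0.087 to 0.02 for Col6a3, -0.251 to 0.010 for Col6a6, -0.059 to 0.051 for Col17a1 and -0.049 to 0.011 for Acan. The cause of these changes was not tested. Quantile normalisation and median centring moved the median of all genes to 0.036 and 0.020. Background limits the size of differences where a group does not exceed it, as for Col8a2 and Col18a1.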
